A study of Zea mays with 6 samples.

Results

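The genes described here are the maize transporters that move water, amino acids, peptides, nitrate, potassium and phosphate across membranes, together with the ATP-binding cassette (ABC) transporters. They were taken from the protein descriptions in the deposited tables by a search for aquaporin, for amino acid, peptide, nitrate, potassium, metal and phosphate transport terms, for the H+-ATPase proton pump and for ABC transporter terms. The search found 88 transcript models of 72 genes, out of 42007 models of 31057 genes with a read in any library. By the first term matched, 30 models were aquaporins, 11 were amino acid transporters, 10 were peptide transporters, 3 were nitrate transporters, 18 were potassium transporters or channels, 6 were phosphate transporters and 10 were ABC transporters. The proton pump and metal transporter terms matched 0 models. The deposited gene ontology text placed 51 of the 88 models as intrinsic to membrane.

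RNA was sequenced from 3 tissues of the maize inbred line Q319, with 2 biological replicates of each. Embryo sacs are the female gametophytes, which hold the egg cell, the synergids, the central cell and the antipodal cells. The nucellus is the maternal ovule tissue around them. The third group was embryo sacs at 14 to 16 h after pollination, and the embryo sac and nucellus labels give no pollination, so those embryo sacs are called unpollinated here. Both kinds of tissue were freed from ovule slices with enzymes, and the labels give neither the plants' age nor how many plants or embryo sacs went into a library.

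Aquaporins are channels that let water, and in some cases small neutral solutes, cross a membrane along its gradient. Most plant carriers of amino acids, small peptides, nitrate and phosphate, and many potassium transporters, are coupled to the proton gradient across the plasma membrane, whereas potassium channels are driven by the membrane voltage and ABC transporters hydrolyse ATP. The embryo sac has no vascular supply of its own, and its nutrients reach it from the surrounding maternal tissue.

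Levels are in CPM, read counts relative to the size of the library, after TMM scaling, which sets the bulk of the transcriptome to a common level between libraries. They compare libraries for the same model. Levels of different models are compared only as RPKM, the authors' own values relative to library size and model length. In edgeR, fitted over all 18844 models with enough reads, a model passed the test when its adjusted p was under 0.05 and its log2 fold change was 1 or more in either direction. Of the 88 members, 41 had enough reads: 12 aquaporins, 6 amino acid, 3 peptide, 8 potassium, 4 phosphate and 8 ABC transporters, and 0 nitrate transporters. The other 47 members had between 1 and 29 reads over the 6 libraries together and entered only alternatives with another filter on low values. Because a model that is high in a single tissue enters more easily, the tested members are not a sample of all members.

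The 18844 tested models held 2518716 to 3222176 uniquely assigned reads per library, or 98.2% to 99.2% of all such reads. The 10 models of known embryo sac genes summed to 3115 and 2975 CPM in the embryo sac libraries and to 2219 and 2113 CPM in the pollinated libraries. In the nucellus libraries they summed to 8.72 and 5.63 CPM, with 8 and 9 of the 10 at 0. The 27 pollen models, 11 to 15 of them at 0 in each library, summed to 21.3 and 31.3 CPM in embryo sac, 45.9 and 50.9 CPM in nucellus and 25.4 and 28.9 CPM in pollinated embryo sac. The sum of the 9 models listed by description for integument, epidermis and vascular tissue moved with pollination: it was 181 and 147 CPM in embryo sac, 155 and 214 CPM in nucellus and 1451 and 1746 CPM in pollinated embryo sac, led there by a flavonoid 3-monooxygenase (GRMZM2G125482_T01). The list joins flavonoid 3-monooxygenase, glossy, xylem and phloem descriptions, and whether more of such tissue was present was not tested. At most 3 of these 9 were at 0 in any library. The 38 photosynthetic models summed to 95.6 and 92.7 CPM in embryo sac, 147 and 149 CPM in nucellus and 37.1 and 44.1 CPM in pollinated embryo sac, with 10 to 26 of them at 0. The part of these other tissues in the results that follow was not tested.

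Taken as a whole, the transporters held nearly the same share of reads in every tissue, while the make-up of that share differed. The 88 members took 0.286% and 0.280% of unpollinated embryo sac reads, 0.271% and 0.270% of nucellus reads, and 0.277% and 0.287% of pollinated embryo sac reads. Aquaporin reads were 0.0968% ± 0.000763 of all reads in embryo sac, 0.119% ± 0.00316 in nucellus and 0.0803% ± 0.0100 after pollination (SD, n = 2). Amino acid transporters were at 0.0294% ± 0.00124 in embryo sac and 0.0272% ± 0.00141 in pollinated embryo sac, against 0.00978% ± 0.000230 in nucellus. Both kinds of embryo sac thus stood above nucellus for amino acid transporters by many times the spread between replicates. Phosphate transporters were at 0.0198% ± 0.00489 in nucellus, 0.0505% ± 0.00165 in unpollinated and 0.0679% ± 0.00192 in pollinated embryo sac, 3 levels that do not overlap. Potassium transporters and channels were at 0.0227% ± 0.0000907, 0.0336% ± 0.00000126 and 0.0197% ± 0.000284 in the order embryo sac, nucellus and pollinated embryo sac. The mean shares of ABC transporters were within 0.0746% to 0.0796% in all 3 tissues.

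**Figure D1:**
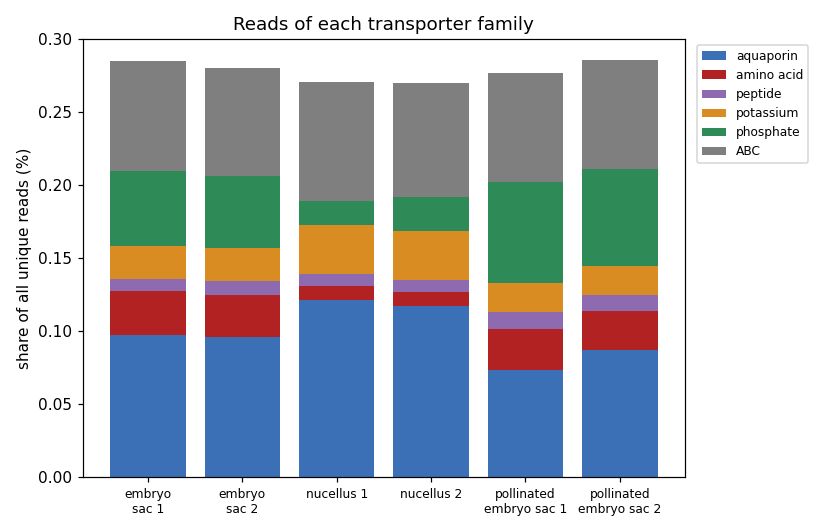
Share of all uniquely assigned reads, in percent, taken by each transporter family in each of the 6 libraries (the 3 nitrate transporter models are too low to show). The height of the bars is nearly the same in all tissues, at 0.270% to 0.287%, while the amino acid and phosphate segments are larger in both kinds of embryo sac than in nucellus.

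The same reads gave a different picture of the total after scaling. The TMM factors were 1.48 and 1.47 in nucellus, where they raise the library size, against 0.873 and 0.878 in unpollinated and 0.782 and 0.768 in pollinated libraries. On that scale the members summed to 3269 ± 54.9 CPM in embryo sac, 1868 ± 2.69 CPM in nucellus and 3667 ± 134 CPM in pollinated embryo sac. With scaling to total reads alone, the median log2 fold change of all tested models was -0.75 for embryo sac against nucellus, -0.26 for pollinated against unpollinated embryo sac and -0.99 for pollinated embryo sac against nucellus, and with TMM it was -0.00, -0.08 and -0.06. Changes are therefore given relative to the bulk of the transcriptome, and a small difference from nucellus depends on that choice. In such bulk samples, fewer cells of a type and less RNA per cell cannot be told apart.

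Against nucellus, unpollinated embryo sacs had more of 17 tested members and less of 7, of 41. These are 41.5% and 17.1% of the tested members, and over all tested models 23.2% were called higher and 16.3% lower. The median log2 fold change of the 41 was 0.75, or 0.62 with the 4 models that had no read in either library of a tissue set to their bounds, against -0.00 over all tested models. By family, 6 of 6 tested amino acid transporters and 3 of 4 phosphate transporters were higher, and 0 of either were lower. Aquaporins had 3 higher and 2 lower of 12, potassium transporters and channels 2 and 2 of 8, ABC transporters 2 and 2 of 8, and peptide transporters 1 and 1 of 3. With scaling to total reads the counts were 10 higher and 10 lower, and the 7 calls lost were all of models higher in embryo sac.

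After pollination, embryo sacs had more of 4 members and less of 7, of 41, which is 9.76% and 17.1%. Over all tested models 13.0% were called higher and 19.3% lower in the pollinated sacs, so the members' counts were near the background. The 41 members had a median log2 fold change of 0.01. Aquaporins had 1 higher and 4 lower of 12, and every other family had at most 1 in each direction. Pollinated embryo sacs against nucellus gave 16 higher and 11 lower members, 39.0% and 26.8%, where all tested models gave 27.2% and 28.0%. These 3 comparisons share libraries: each tissue enters 2 of them. With scaling to total reads the split against nucellus became 11 higher and 17 lower. All tested models then gave 3249 higher and 9250 lower, in place of 5132 and 5268.

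**Figure D2:**
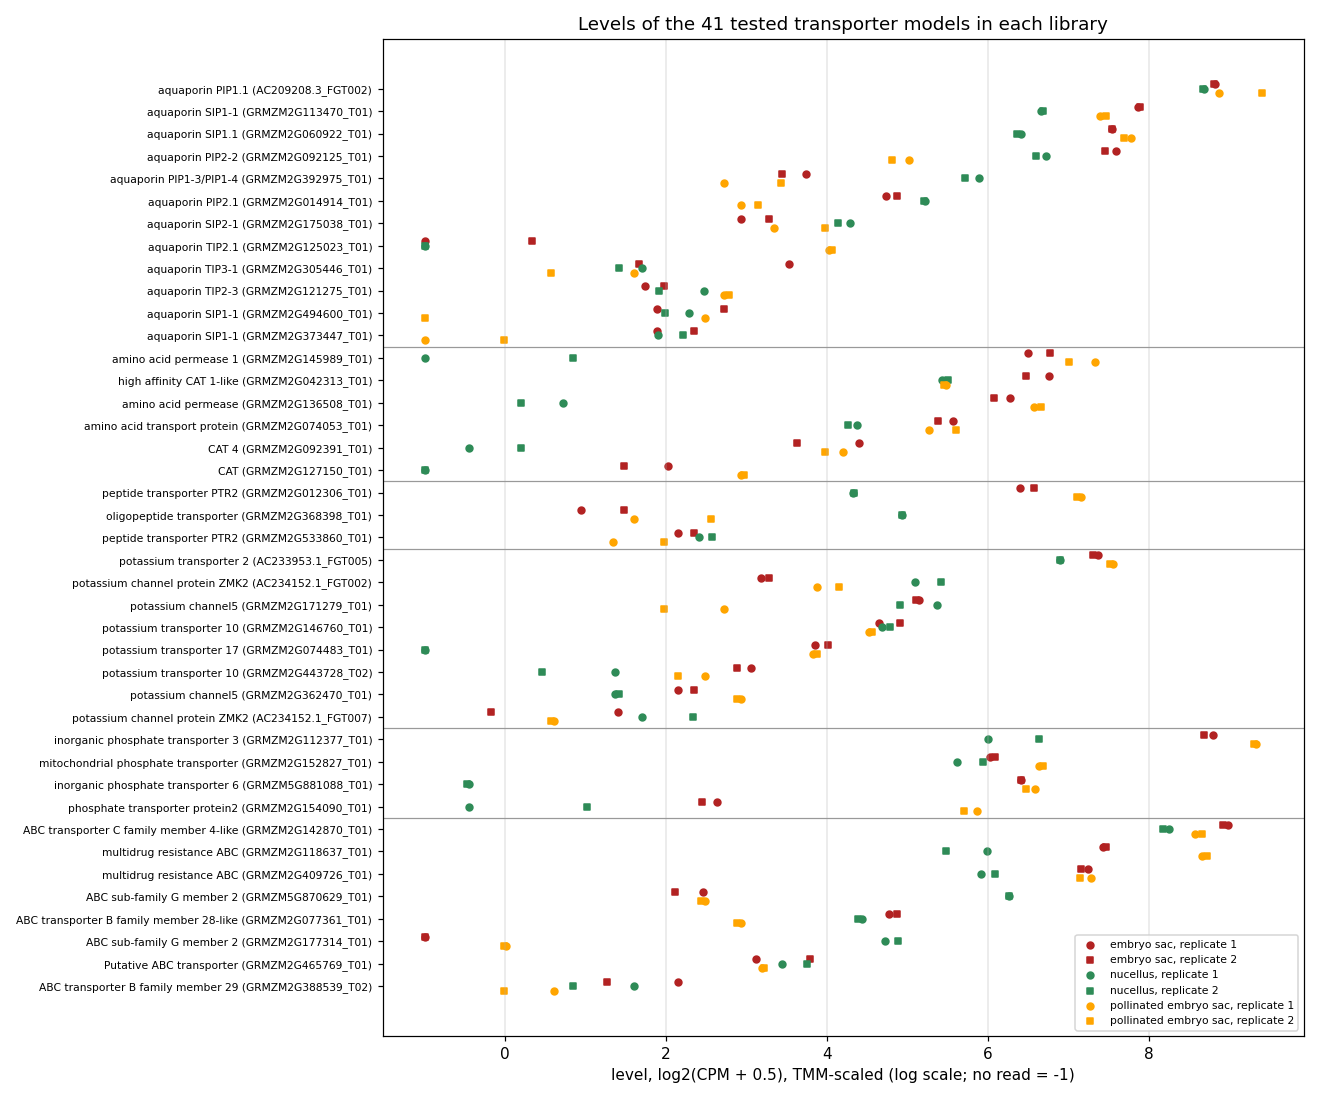
Level of each of the 41 tested transporter models in each library, as log2(CPM + 0.5) on TMM-scaled libraries, grouped by family and ordered by level within it (CAT, cationic amino acid transporter). Amino acid permease 1, a second amino acid permease and inorganic phosphate transporter 6 lie far to the right in the 4 embryo sac libraries and near the no-read position of -1 in nucellus, and an ABC sub-family G member shows the opposite.

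Amino acid transporters had the highest median fold change between the gametophyte and the tissue around it among the 6 families tested. Amino acid permeases take up a broad range of amino acids together with protons, and cationic amino acid transporters favour basic amino acids such as arginine and lysine. Amino acid permease 1 (GRMZM2G145989_T01) was at 89.5 and 109 CPM in embryo sac, 0 and 1.30 CPM in nucellus and 159 and 128 CPM in pollinated embryo sac. It was almost unread in nucellus and higher in both pollinated libraries than in either unpollinated library. The log2 fold change was 7.13 ± 0.29 (SE, adjusted p = 1.9e-42) for embryo sac against nucellus and 0.54 ± 0.14 after pollination, the latter below the fold threshold. Leaving out a library moved the first value over 6.20 to 11.10, since 1 nucellus library had no read, and it passed in 4 of 4 such fits. Reads covered 94.4% and 95.4% of the model in the unpollinated libraries.

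A second amino acid permease (GRMZM2G136508_T01) was at 76.4 and 66.7 CPM in embryo sac, 1.15 and 0.650 CPM in nucellus and 94.4 and 100.4 CPM in pollinated embryo sac, with a log2 fold change of 6.26 ± 0.28 (SE, adjusted p = 2.1e-49) against nucellus. The other listed model of this gene, GRMZM2G136508_T02, had 9 and 12 reads in the embryo sac libraries, 0 and 0 in the nucellus libraries and 4 and 4 in the pollinated libraries, below the count filter. Both models of the gene were thus read mainly in embryo sacs. Unique reads covered at most 25.5% of the first, so its level is uncertain, and with the counts of both models summed the log2 fold change was 6.34.

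Cationic amino acid transporter 4 (GRMZM2G092391_T01) was at 20.6 and 11.8 CPM in embryo sac, 0.229 and 0.650 CPM in nucellus and 17.8 and 15.2 CPM in pollinated embryo sac, a log2 fold change of 5.07 ± 0.49 (SE, adjusted p = 9.3e-19) against nucellus and of 0.01 ± 0.29 after pollination. Another cationic amino acid transporter (GRMZM2G127150_T01) was at 3.55 and 2.29 CPM in embryo sac, 0 in both nucellus libraries and 7.11 and 7.35 CPM in pollinated embryo sac. All 4 embryo sac libraries had reads of it and neither nucellus library had any. It was at least 4.37-fold higher in embryo sac than in nucellus (adjusted p = 4.2e-06) and at least 10.8-fold higher in pollinated embryo sac, against a floor of 3 reads per library. After pollination it rose by a log2 fold change of 1.29 ± 0.51 (SE, adjusted p = 0.027), a call that was lost when any 1 of the 4 libraries was left out (log2 fold change 1.02 to 1.64). The second model of this gene, GRMZM2G127150_T02, had 2 and 5 reads in embryo sac and 0 in each of the other 4 libraries.

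The 2 remaining tested members of the family differed less between tissues. A model described as high affinity cationic amino acid transporter 1-like (GRMZM2G042313_T01) was at 108 and 88.5 CPM in embryo sac, 42.7 and 44.6 CPM in nucellus and 44.2 and 43.1 CPM in pollinated embryo sac. Its unpollinated libraries were above the other 4, which overlapped: the log2 fold change was 1.17 ± 0.14 (SE, adjusted p = 2.4e-13) against nucellus and -1.17 ± 0.16 (SE, adjusted p = 7.9e-11) after pollination. With scaling to total reads the first fell to 0.42 and no longer passed. By RPKM it was the highest amino acid transporter in nucellus, at 25.0 ± 0.702 (SD, n = 2), whereas amino acid permease 1 led in embryo sac at 48.2 ± 6.75 and in pollinated embryo sac at 62.0 ± 10.4. A model described only as an amino acid transport protein (GRMZM2G074053_T01) was at 46.9 and 41.2 CPM, 20.2 and 18.6 CPM and 38.1 and 48.0 CPM in the order embryo sac, nucellus and pollinated embryo sac, with 1.18 ± 0.19 against nucellus on the log2 scale, a call also lost with scaling to total reads.

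The median log2 fold change of the 6 tested amino acid transporters was 5.63 for embryo sac against nucellus, or 3.60 with the model that had no nucellus read set to its bound. Among the 5 untested members, a vacuolar amino acid transporter 1-like model (GRMZM2G010433_T01) went the other way in its reads. It had 3 and 5 reads in embryo sac, 8 and 11 in the nucellus libraries and 0 in both pollinated libraries.

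Phosphate transporters of the PHT1 type carry inorganic phosphate into cells together with protons. Inorganic phosphate transporter 3 (GRMZM2G112377_T01, symbol pht7) was at 443 and 410.0 CPM in embryo sac, 63.5 and 98.6 CPM in nucellus and 639.7 and 632 CPM in pollinated embryo sac. The groups did not overlap, and pollinated libraries were highest. The log2 fold change was 2.39 ± 0.12 (SE, adjusted p = 3.0e-34) against nucellus, and 0.57 ± 0.11 after pollination, below the fold threshold. It was the most abundant phosphate transporter in every tissue by RPKM, at 169.8 ± 8.82 in embryo sac, 53.9 ± 16.3 in nucellus and 225 ± 4.75 after pollination (SD, n = 2). It held 56.4% to 74.2% of the phosphate transporter reads of a library.

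Inorganic phosphate transporter 6 (GRMZM5G881088_T01, symbol pht6), known in maize for its induction in roots colonised by mycorrhizal fungi, was at 84.2 and 84.7 CPM in embryo sac, 0.229 and 0.217 CPM in nucellus and 95.4 and 88.1 CPM in pollinated embryo sac. Each nucellus library had 1 read of it, and the 4 embryo sac libraries lay close together. The ratio of embryo sac to nucellus was 379 (95% exact counting interval 104 to 3138), with an adjusted p of 2.1e-55. The ratio of pollinated embryo sac to nucellus was 412 (95% exact counting interval 113 to 3412). After pollination the log2 fold change was 0.12 ± 0.15 (SE, adjusted p = 0.51).

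Phosphate transporter protein2 (GRMZM2G154090_T01, symbol pht2) was lowest in nucellus and highest in pollinated embryo sac. It was at 0.229 and 1.52 CPM in nucellus, 5.68 and 4.96 CPM in embryo sac and 57.4 and 51.4 CPM in pollinated embryo sac. The 3 tissues did not overlap. It was higher in embryo sac than in nucellus by 2.53 ± 0.53 (SE, adjusted p = 1.4e-05) on the log2 scale, and rose after pollination by 3.34 ± 0.28 (SE, adjusted p = 3.2e-22). The mitochondrial phosphate transporter (GRMZM2G152827_T01), which brings phosphate to the ATP synthase in the mitochondrial matrix, did not pass in any comparison. Its levels were 64.3 and 67.5 CPM in embryo sac, 48.6 and 60.7 CPM in nucellus and 99.0 and 102 CPM in pollinated embryo sac, with 0.61 ± 0.14 (SE, adjusted p = 1.7e-04) after pollination. A second mitochondrial model, GRMZM2G060630_T01, had 9 reads in all and inorganic phosphate transporter 5 (GRMZM2G009779_T01) had 1.

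By summed RPKM, aquaporins were the most abundant of the families in every library. In maize they fall into plasma membrane intrinsic proteins (PIP), tonoplast intrinsic proteins (TIP) of the vacuole, nodulin-26-like intrinsic proteins (NIP) and small basic intrinsic proteins (SIP), the last placed in the endoplasmic reticulum in Arabidopsis. PIP models held 54.2% to 73.4% of the aquaporin reads of a library, SIP models 25.2% to 42.5%, TIP models 0.619% to 2.96% and NIP models 0.0687% to 0.411%. The PIP share was highest in nucellus, at 73.4% and 73.1%, against 60.5% and 59.5% in embryo sac and 54.2% and 62.8% in pollinated embryo sac. PIP and SIP models together held nearly all aquaporin reads, so the SIP share had to go the other way. It was 25.2% and 25.6% in nucellus against 38.1% and 39.9% in embryo sac and 42.5% and 34.7% in pollinated embryo sac. These shares do not depend on the scaling between libraries. A higher share is not a higher level: on the TMM scale, PIP models summed to 682 and 660 CPM in embryo sac. They summed to 615 and 593 CPM in nucellus and to 512 and 720 CPM in pollinated embryo sac.

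PIP1.1 (AC209208.3_FGT002) alone took 40.0% to 58.8% of the aquaporin reads of a library. It was at 451 and 446 CPM in embryo sac, 411 and 407 CPM in nucellus and 465 and 674 CPM in pollinated embryo sac, where the replicates differed more than elsewhere. By RPKM it was the highest of all 88 members in each tissue, at 446 ± 1.74, 680.2 ± 8.25 and 502 ± 124 in the same order (SD, n = 2). It did not pass in any comparison. Its log2 fold change was 0.13 ± 0.11 for embryo sac against nucellus with TMM and turned to -0.62 with scaling to total reads, and after pollination it was 0.34 ± 0.11, moving over 0.07 to 0.59 as libraries were left out.

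The other 3 PIP models with enough reads fell after pollination or were lower in embryo sac than in nucellus. In maize, PIP1 proteins need PIP2 partners to reach the plasma membrane, and PIP2 proteins form efficient water channels. PIP2-2 (GRMZM2G092125_T01) was at 192 and 174 CPM in embryo sac, 104 and 95.7 CPM in nucellus and 32.0 and 27.4 CPM in pollinated embryo sac. It fell after pollination by a log2 fold change of -2.62 ± 0.15 (SE, adjusted p = 4.9e-36), and both pollinated libraries lay below all 4 others. PIP2.1 (GRMZM2G014914_T01) was at 25.9 and 28.6 CPM, 36.7 and 36.2 CPM and 7.11 and 8.32 CPM in the same tissue order and fell after pollination by -1.81 ± 0.29 (SE, adjusted p = 1.8e-08) on the log2 scale. Against nucellus, pollinated embryo sacs were lower for both, at -1.75 ± 0.16 for PIP2-2 and -2.23 ± 0.26 for PIP2.1. Embryo sac before pollination did not pass against nucellus for either, at 0.87 ± 0.12 and -0.42 ± 0.19. With scaling to total reads PIP2.1 did pass there as lower in embryo sac, at -1.17, and PIP2-2 did not, at 0.12.

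A model shared by name between PIP1-3 and PIP1-4 (GRMZM2G392975_T01) was a nucellus aquaporin by its levels. It was at 12.8 and 10.3 CPM in embryo sac, 58.7 and 52.0 CPM in nucellus and 6.09 and 10.3 CPM in pollinated embryo sac. Both nucellus libraries were several times above the other 4, with a log2 fold change of -2.25 ± 0.21 (SE, adjusted p = 3.0e-19) for embryo sac against nucellus. Unique reads covered 13.9 to 18.0% of this model and 8.74 to 12.9% of PIP2.1, so that reads of near-identical copies may be missing or split for both. The 7 other PIP models had 1 to 14 reads each and were not tested.

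SIP aquaporins are intracellular channels, and the 2 abundant ones were higher in embryo sac. SIP1-1 (GRMZM2G113470_T01) was at 231 and 237 CPM in embryo sac, 100.5 and 102 CPM in nucellus and 168 and 176 CPM in pollinated embryo sac. SIP1.1 (GRMZM2G060922_T01) was at 185 and 186 CPM, 84.4 and 81.4 CPM and 219 and 206 CPM. For both, the nucellus libraries were the lowest of the 6. Against nucellus, embryo sac was higher by 1.21 ± 0.11 (SE, adjusted p = 2.4e-19) and 1.16 ± 0.12 (SE, adjusted p = 2.5e-17) on the log2 scale, and with scaling to total reads these became 0.46 and 0.41 and did not pass. Pollinated embryo sac against nucellus passed for SIP1.1 at 1.36 ± 0.12, a call lost at 0.43 with scaling to total reads, but not for SIP1-1 at 0.76 ± 0.12. After pollination, SIP1-1 was at -0.45 ± 0.12 and SIP1.1 at 0.20 ± 0.12, neither past the fold threshold.

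SIP2-1 (GRMZM2G175038_T01) went the other way, with 7.11 and 9.15 CPM in embryo sac, 19.0 and 17.1 CPM in nucellus and 9.65 and 15.2 CPM in pollinated embryo sac. It was lower in embryo sac than in nucellus by a log2 fold change of -1.15 ± 0.28 (SE, adjusted p = 1.7e-04), which was -0.95 and did not pass without embryo sac replicate 1. Among 2 further SIP1-1 models with few reads, GRMZM2G373447_T01 was at 3.20 and 4.58 CPM in embryo sac, 3.21 and 4.12 CPM in nucellus and 0 and 0.490 CPM in pollinated embryo sac. With 1 read after pollination, it was lower there than in unpollinated embryo sac by a ratio of 15.5 (95% exact counting interval 2.49 to 641), at an adjusted p of 9.9e-04, a call that DESeq2 did not make. GRMZM2G494600_T01 differed between the pollinated replicates, at 5.08 and 0 CPM, and did not pass. With scaling to total reads it passed as lower in pollinated embryo sac than in nucellus, at -1.55.

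TIP2.1 (GRMZM2G125023_T01) was the only tested aquaporin called higher after pollination. It was at 0 and 0.763 CPM in embryo sac, 0 and 0 CPM in nucellus and 15.7 and 16.2 CPM in pollinated embryo sac. Reads were thus nearly limited to the pollinated libraries, and they covered at most 30.8% of the model. The ratio of pollinated to unpollinated embryo sac was 43.4 (95% exact counting interval 11.5 to 366), with an adjusted p of 1.4e-12, and the level was at least 23.8-fold higher than in nucellus. The change in the sum of the integument, epidermis and vascular list, from 181 and 147 CPM to 1451 and 1746 CPM, went the same way, and its part in this result was not tested. A flavonoid 3-monooxygenase led that sum in the pollinated libraries. TIP2-3 (GRMZM2G121275_T01), at 2.84 and 3.43 CPM, 5.05 and 3.25 CPM and 6.09 and 6.37 CPM, did not pass in any comparison. With scaling to total reads it passed as lower in embryo sac than in nucellus, at -1.14.

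TIP3-1 (GRMZM2G305446_T01), whose family is best known from the protein storage vacuoles of seeds, rested on a single library. It was at 11.0 and 2.67 CPM in embryo sac, 2.75 and 2.17 CPM in nucellus and 2.54 and 0.979 CPM in pollinated embryo sac. Embryo sac replicate 2 lay within the range of the nucellus libraries. The log2 fold changes of 1.49 ± 0.46 against nucellus and -1.97 ± 0.61 after pollination passed with both libraries, and without embryo sac replicate 1 they were 0.14 and -0.60 and did not pass. The 8 NIP models, of 4 genes, had 2 to 15 reads per library in all, and 0 of them were tested. NIP1-1 (GRMZM2G041980_T04) had 3 and 1 reads in embryo sac, 11 and 9 in the nucellus libraries and 0 in both pollinated libraries. NIP2-3 (GRMZM2G081239_T01) had 6 and 4 reads in the pollinated libraries and 0 in the other 4.

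**Figure D3:**
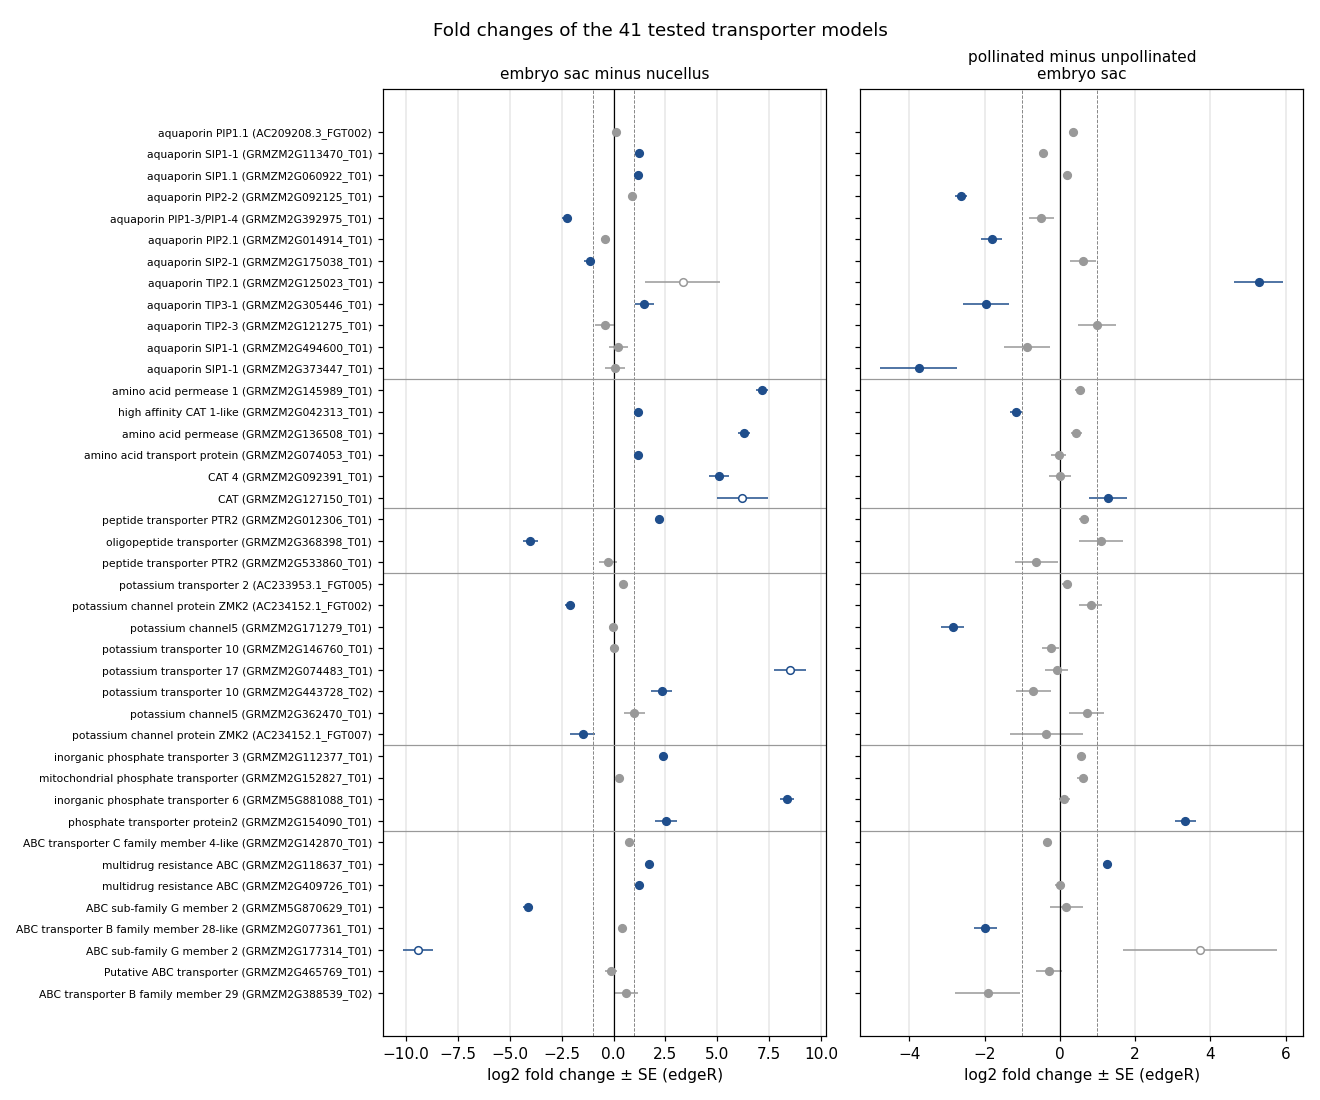
Log2 fold change ± SE of the 41 tested transporter models in edgeR, for embryo sac minus nucellus (left) and pollinated minus unpollinated embryo sac (right), with dashed lines at -1 and 1. Blue points passed the test and grey points did not, and open points mark models with no read in either library of the lower group, whose fitted value depends on the prior count. All 6 amino acid transporters lie to the right of 1 on the left side, while 4 aquaporins lie to the left of -1 on the right side.

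Potassium transporters of the KUP/HAK type take up or redistribute potassium inside plant cells, and Shaker-type channels carry potassium along the membrane voltage. Potassium transporter 2 (AC233953.1_FGT005) was the highest of this family by RPKM in every tissue, at 63.4 ± 1.83 in embryo sac, 77.8 ± 0.530 in nucellus and 64.3 ± 1.94 after pollination (SD, n = 2). It held 50.7% to 72.5% of the family's reads in a library and did not pass in any comparison. Its log2 fold change against nucellus was 0.45 ± 0.12 with TMM and -0.30 with scaling to total reads. Potassium transporter 17 (GRMZM2G074483_T01) was at 13.9 and 15.6 CPM in embryo sac, 0 and 0 CPM in nucellus and 13.7 and 14.2 CPM in pollinated embryo sac. All 4 embryo sac libraries were alike and neither nucellus library had a read. It was at least 22.0-fold higher in embryo sac than in nucellus (adjusted p = 1.0e-20) and at least 20.9-fold higher in pollinated embryo sac than in nucellus. After pollination the log2 fold change was -0.08 ± 0.31.

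Of the 10 potassium channel models 4 were tested: both ZMK2 models were lower in embryo sac than in nucellus, 1 potassium channel5 model fell after pollination, and the other was higher in pollinated embryo sac than in nucellus. ZMK2 is a weakly voltage-dependent channel of the AKT2 type. Its model AC234152.1_FGT002 was at 8.53 and 9.15 CPM in embryo sac, 33.5 and 42.2 CPM in nucellus and 14.2 and 17.1 CPM in pollinated embryo sac, with -2.10 ± 0.24 (SE, adjusted p = 1.8e-14) for embryo sac against nucellus on the log2 scale. A second ZMK2 model on the same clone, AC234152.1_FGT007, was called lower too, at -1.48 ± 0.62, but passed in 1 of the 4 fits that left out a library and did not pass with a replicate block. Potassium channel5 (GRMZM2G171279_T01) was at 34.8 and 33.9 CPM in embryo sac, 40.6 and 29.5 CPM in nucellus and 6.09 and 3.43 CPM in pollinated embryo sac. It fell after pollination by -2.85 ± 0.31 (SE, adjusted p = 3.5e-15) on the log2 scale and was -0.02 ± 0.19 against nucellus before it. Unique reads covered only 5.67 to 8.37% of its length.

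Another model with the name potassium channel5 (GRMZM2G362470_T01) did not fall, with 3.91 and 4.58 CPM in embryo sac, 2.06 and 2.17 CPM in nucellus and 7.11 and 6.86 CPM in pollinated embryo sac. It passed only in pollinated embryo sac against nucellus, at 1.70 ± 0.49 (SE, adjusted p = 0.0011), a call lost with scaling to total reads (0.79, adjusted p = 0.13) and in DESeq2 and limma. A potassium transporter 10 model (GRMZM2G443728_T02) was higher in embryo sac than in nucellus by 2.31 ± 0.49 (SE, adjusted p = 1.4e-05), with reads on at most 2.77% of its length, and its call in pollinated embryo sac against nucellus, at 1.60 ± 0.58, was lost with scaling to total reads (0.69). The other potassium transporter 10 model, GRMZM2G146760_T01, was near 25 CPM in all tissues, from 22.3 to 29.4 CPM, and did not pass in any comparison. With scaling to total reads it passed as lower in pollinated embryo sac than in nucellus, at -1.12. Both listed models of an inwardly rectifying channel, GRMZM2G081666_T01 and GRMZM2G081666_T02, had 4 to 7 reads in each nucellus library, 0 in both embryo sac libraries and at most 1 in a pollinated library. Potassium channel4 (GRMZM2G093313_T02) had 9 and 10 reads in nucellus and 1 read in the other 4 libraries together.

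The PTR2-type peptide transporters carry di- and tripeptides with protons, and oligopeptide transporters carry longer peptides or metal chelates. Peptide transporter PTR2 (GRMZM2G012306_T01) was at 83.5 and 94.6 CPM in embryo sac, 19.5 and 19.7 CPM in nucellus and 142 and 137 CPM in pollinated embryo sac. The tissues did not overlap, with nucellus lowest and pollinated embryo sac highest. The log2 fold change was 2.18 ± 0.15 (SE, adjusted p = 6.2e-29) for embryo sac against nucellus and 0.65 ± 0.13 (SE, adjusted p = 1.3e-05) after pollination, the latter below the fold threshold. An oligopeptide transporter (GRMZM2G368398_T01) was instead highest in nucellus, at 1.42 and 2.29 CPM in embryo sac, 30.0 and 29.9 CPM in nucellus and 2.54 and 5.39 CPM in pollinated embryo sac, with -4.00 ± 0.35 (SE, adjusted p = 3.0e-21) for embryo sac against nucellus. By RPKM these were the leading peptide transporters of their tissues: PTR2 was at 33.6 ± 3.07 in embryo sac and 12.4 ± 0.0509 in nucellus, and the oligopeptide transporter was at 15.1 ± 0.110 in nucellus (SD, n = 2). A second oligopeptide transporter, GRMZM2G120922_T01, had 3 and 8 reads in the embryo sac libraries, 0 in the nucellus libraries and 1 and 2 in the pollinated libraries. A second tested PTR2 model, GRMZM2G533860_T01, stayed between 2.03 and 5.42 CPM and did not pass. With scaling to total reads it passed as lower than nucellus in embryo sac, at -1.02, and in pollinated embryo sac, at -1.81.

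The 3 nitrate transporter models were below the count filter. High affinity nitrate uptake needs a transporter and a small partner protein. The partner component (GRMZM2G163494_T01) had 10 and 2 reads in the embryo sac libraries, 1 and 1 in the nucellus libraries and 6 and 8 in the pollinated libraries. A putative high affinity transporter (GRMZM2G010280_T01) had 4 and 3 reads in the embryo sac libraries, 0 in the nucellus libraries and 1 and 3 in the pollinated libraries, and a high affinity transporter precursor (GRMZM2G179294_T01) had 3 reads in 1 pollinated library only. With no filter on low counts, edgeR called the first 2 higher than nucellus in both kinds of embryo sac, and DESeq2 called only the partner component, in pollinated embryo sac against nucellus.

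Among the ABC transporters, both sub-family G models were nucellus transcripts. Plant ABC transporters of sub-family G include exporters of wax and cutin precursors, and those of sub-family C load conjugates and other organic anions into the vacuole. A model described as sub-family G member 2 (GRMZM5G870629_T01) was at 4.97 and 3.81 CPM in embryo sac, 75.9 and 76.2 CPM in nucellus and 5.08 and 4.90 CPM in pollinated embryo sac. The embryo sac level was lower than that of nucellus by -4.10 ± 0.24 (SE, adjusted p = 2.1e-36) on the log2 scale. Another model with that description (GRMZM2G177314_T01) was at 0 and 0 CPM, 25.9 and 29.0 CPM and 0.508 and 0.490 CPM in the same order. Neither embryo sac library before pollination had a read of it, and each pollinated library had 1. It was at least 24.9-fold lower in embryo sac than in nucellus (adjusted p = 6.7e-26), and lower in pollinated embryo sac by a ratio of 55.2 (95% exact counting interval 15.1 to 458).

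Of the models described as multidrug resistance protein ABC transporters, GRMZM2G118637_T01 was at 171 and 175 CPM in embryo sac, 63.1 and 44.0 CPM in nucellus and 403 and 421 CPM in pollinated embryo sac. The pollinated libraries were the highest and the nucellus libraries the lowest. It was higher in embryo sac than in nucellus by 1.70 ± 0.13 (SE, adjusted p = 2.3e-26) on the log2 scale, a call lost at 0.95 with scaling to total reads, and rose after pollination by 1.25 ± 0.12 (SE, adjusted p = 3.0e-19). Unique reads covered 11.8 to 15.8% of this model. The other, GRMZM2G409726_T01, was at 151 and 142 CPM, 59.9 and 67.4 CPM and 155 and 140.1 CPM, with 1.20 ± 0.12 against nucellus, which became 0.45 with scaling to total reads and did not pass, and 0.01 ± 0.12 after pollination. Unique reads covered 6.38 to 13.0% of GRMZM2G409726_T01.

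ABC transporter C family member 4-like (GRMZM2G142870_T01) held 39.5% to 58.0% of the family's reads in a library, at 506 and 485 CPM in embryo sac, 302 and 288 CPM in nucellus and 379 and 402 CPM in pollinated embryo sac. Its log2 fold change against nucellus was 0.75 ± 0.11 with TMM and -0.00 with scaling to total reads, and it did not pass in any comparison. By RPKM it was the highest ABC transporter in nucellus, at 83.4 ± 3.19, while GRMZM2G118637_T01 was highest in embryo sac at 91.8 ± 2.02 and in pollinated embryo sac at 194 ± 3.46 (SD, n = 2). In embryo sac that lead was small, since ABC transporter C family member 4-like was at 83.8 ± 2.21. Unique reads covered 11.8 to 15.8% of GRMZM2G118637_T01 and 68.8 to 69.4% of ABC transporter C family member 4-like. RPKM divides by the whole model length, so the ranking of these models is uncertain. ABC transporter B family member 28-like (GRMZM2G077361_T01) was at 26.6 and 28.6 CPM in embryo sac, 21.1 and 20.4 CPM in nucellus and 7.11 and 6.86 CPM in pollinated embryo sac. It fell after pollination by -1.98 ± 0.30 (SE, adjusted p = 4.2e-09) on the log2 scale, and both pollinated libraries were below the other 4. The remaining 2 tested models, a putative ABC transporter (GRMZM2G465769_T01) and ABC transporter B family member 29 (GRMZM2G388539_T02), did not pass in any comparison. With scaling to total reads both passed as lower in pollinated embryo sac than in nucellus, at -1.34 and -2.19. The second also passed as lower after pollination, at -2.07.

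Across the 3 comparisons together, 11 members were higher in both kinds of embryo sac than in nucellus with no call between the sacs, or 26.8% of the tested members against 12.4% of all tested models. Of the 11, 7 kept this pattern with scaling to total reads, and SIP1.1, the amino acid transport protein, the multidrug resistance protein ABC transporter GRMZM2G409726_T01 and potassium transporter 10 GRMZM2G443728_T02 did not. Another 6, or 14.6% of the tested members, were lower in both kinds than in nucellus with no call between the sacs. They were both sub-family G models, the oligopeptide transporter, both ZMK2 models and PIP1-3/PIP1-4, a pattern of 8.4% of all tested models. A further 5 were lower only once pollinated, against both other groups: PIP2-2, PIP2.1, SIP1-1 GRMZM2G373447_T01, potassium channel5 GRMZM2G171279_T01 and ABC transporter B family member 28-like. They were 12.2% of the tested members, near the 10.5% of all tested models. Of these 5, PIP2.1 did not keep the pattern with scaling to total reads, where unpollinated embryo sac was also called lower than nucellus. The 3 members that were higher at each step, from nucellus to embryo sac to pollinated embryo sac, were phosphate transporter protein2, the multidrug resistance protein ABC transporter GRMZM2G118637_T01 and the cationic amino acid transporter GRMZM2G127150_T01. They were 7.32% of the tested members, against 4.86% of all tested models. Of these 3, only phosphate transporter protein2 kept the pattern with scaling to total reads, and the pollination call of GRMZM2G127150_T01 was also lost without any 1 library, with no filter on low counts and in DESeq2 and limma. High affinity cationic amino acid transporter 1-like and TIP3-1 were higher in unpollinated embryo sac than in both other tissues by the fold changes, though TIP3-1 rested on replicate 1 and neither kept the pattern with scaling to total reads. This pattern held 4.88% of the tested members against 2.22% of all tested models. In 10 members no comparison passed, 24.4% of the tested members against 34.7% of all tested models, and the last 4 were called in patterns of their own: SIP2-1, TIP2.1, SIP1-1 GRMZM2G113470_T01 and potassium channel5 GRMZM2G362470_T01. With scaling to total reads, 6 of the 10 were called in at least 1 comparison, and of the last 4 only TIP2.1 kept its pattern.

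**Figure D4:**
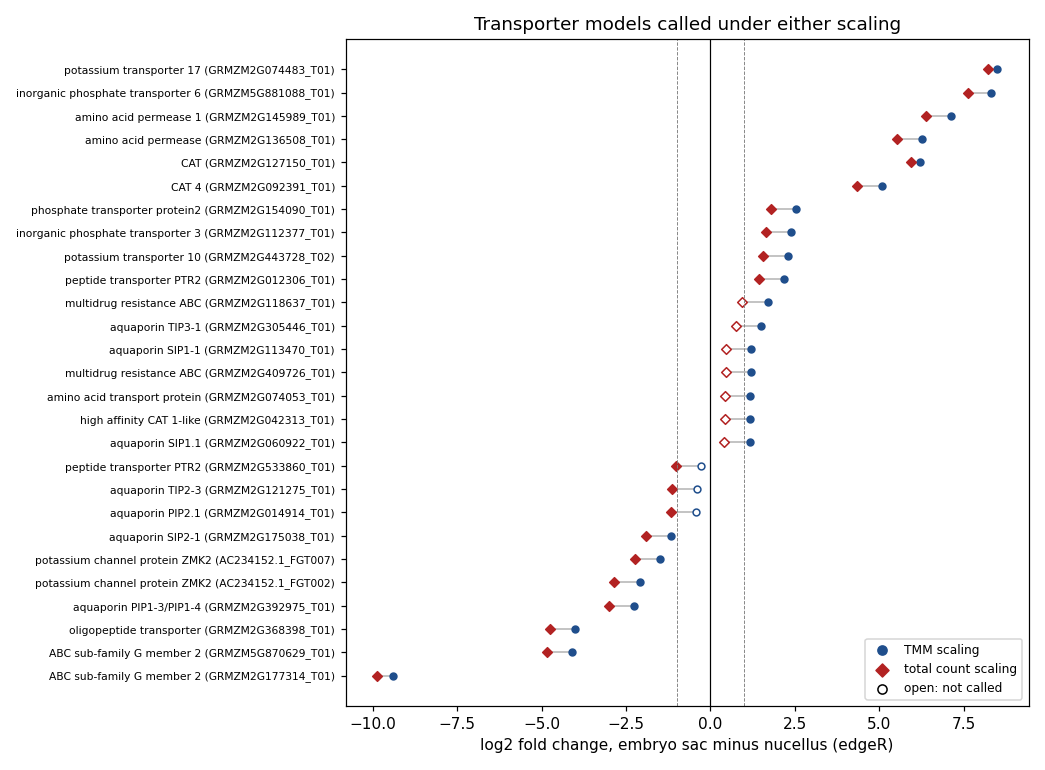
Log2 fold change, embryo sac minus nucellus, of the 27 transporter models that passed under TMM scaling or scaling to total reads, with dashed lines at -1 and 1. Filled symbols passed under that scaling and open symbols did not. The 7 models that passed under TMM alone lie between 1 and 2, and the models with the largest changes passed under both.

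Calls against nucellus depended on the scaling in both directions. With scaling to total reads, members called lower than in nucellus rose from 7 to 10 for embryo sac. For pollinated embryo sac they rose from 11 to 17. Of the 24 members called for embryo sac against nucellus, 17 were also called with scaling to total reads and 0 changed sign. For pollinated against unpollinated embryo sac this held for 10 of 11 and for pollinated embryo sac against nucellus for 22 of 27, again with 0 sign changes. Each call lost in the 3 comparisons was of a model called higher. This follows from the downward shift, as scaling to total reads moved the median of all tested models to -0.75, -0.26 and -0.99. It is no sign that lower calls are firmer. Among all 41 tested members, 9, 4 and 6 changed sign in the 3 comparisons in that order. Coverage also differed: in 11 of the 41, no library had more than 25% of the model covered by unique reads, and 14 reached over 80% in at least 1 library.

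Transporters outside these families gave a yardstick, from a list of sugar, sulfate, ammonium, zinc, copper and other carriers with 55 models of 44 genes, 28 of them tested. For embryo sac against nucellus 8 were higher and 6 lower, or 28.6% and 21.4%, near the 23.2% and 16.3% of all tested models, with a median log2 fold change of 0.26. After pollination 3 were higher and 8 lower, or 10.7% and 28.6% against 13.0% and 19.3% of all tested models, with a median of -0.21, and pollinated embryo sac against nucellus gave 7 higher and 6 lower, or 25% and 21.4% against 27.2% and 28.0%, with a median of 0.09. A sulfate transporter (GRMZM2G159632_T01) was at 219.6 and 219 CPM in embryo sac, 0.229 and 0.650 CPM in nucellus and 93.9 and 90.1 CPM in pollinated embryo sac, with 8.82 ± 0.26 (SE, adjusted p = 3.3e-75) against nucellus and -1.25 ± 0.13 (SE, adjusted p = 7.7e-17) after pollination on the log2 scale. Sulfate transporter 3.4 (GRMZM2G444801_T01) was at 296 and 299 CPM, 10.3 and 17.5 CPM and 253 and 225 CPM. Both sulfate carriers were thus many times above nucellus in all 4 embryo sac libraries. Zinc transporter 10 precursor (GRMZM2G379348_T01) went the other way, at 18.8 and 25.2 CPM, 67.9 and 58.1 CPM and 5.58 and 7.35 CPM, with -1.52 ± 0.18 against nucellus and -1.75 ± 0.31 after pollination.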

How the data were processed

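Per the labels' protocols, poly(A) RNA of each tissue was sequenced as Illumina libraries in 2 biological replicates. For each library the authors deposited unique read counts by transcript model, and models not listed there were set to 0 reads. The deposited RPKM values are the authors' counts relative to the library total and model length, and a recalculation from the other columns differed by at most 1.39e-08 of the value. The deposited percent values give how much of each model the reads covered, per the file headers. The aligner, counter and genome build were not given in the sources used here. Reads shared by models or near-identical copies are missing or split, which bears on 33 members of 17 genes that have several listed models. The files carry no strand information, so antisense reads cannot be separated. Symbols, found for 48 of the 72 genes, came from RefSeq (Zm-B73-REFERENCE-NAM-5.0), used for names only.

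The counts entered edgeR 4.0.16 in R 4.3.3 (filterByExpr, TMM, robust quasi-likelihood fit, Benjamini-Hochberg adjustment over all 18844 tested models), with the 3 tissues in a joint fit. The SE is the absolute log2 fold change divided by the square root of the F statistic. Where the lower tissue had no read, folds are bounds against 3 reads per library, and where it had 1 to 3 reads a ratio with its exact 95% interval is given. Intervals and bounds cover counting error only and leave out the spread between the 2 libraries of a tissue. PCR reads are not independent molecules, so even the counting error may be larger than given. The alternatives used limma 3.58.1 and DESeq2 1.42.0, other scalings and filters, gene-level counts, a replicate block and leaving out each library. Same-numbered libraries did not deviate together (correlations of -0.0194, 0.0165 and 0.0036 between tissues), so the numbers do not pair them. A fit of embryo sac against nucellus alone, not the joint fit, was checked on simulated data. The simulated tissues had no built-in shift in scaling, so the check does not bear on the choice of scaling.

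The members, the lists and the naming rule were chosen with earlier results of these data known. For each family and each of the first 2 comparisons, the rule takes up to 2 called models per direction with the largest change, at least 10 CPM in the higher tissue and no overlap, and the model with the highest RPKM in each tissue. Other members are named in counts of 5 or fewer, or were singled out after their values were seen.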

Additional observations from a re-analysis of the deposited data

How the results depend on the processing

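With scaling to total reads, the members called for embryo sac against nucellus were 10 higher and 10 lower in place of 17 and 7. All models were then 2996 higher and 7463 lower in place of 4368 and 3065. For pollinated embryo sac against nucellus the members called lower became 17 in place of 11, and all models became 3249 higher and 9250 lower in place of 5132 and 5268. In limma on log2(RPKM + 1), the members called for embryo sac against nucellus were 10 higher and 12 lower, those called lower for pollinated embryo sac against nucellus were 19, and all models called lower in these comparisons were 7535 and 10593. With a pseudocount of 0.1 the same lower counts were 13, 21, 7242 and 10940. RPKM is scaled to total reads, as in the first alternative. The DESeq2 test gave 2033 models lower for embryo sac against nucellus and 2173 lower after pollination, in place of 3065 and 3646. With no fold threshold, 5156 models were lower in embryo sac than in nucellus, and after pollination 11 members and 4577 models were higher, in place of 4 and 2444. With no filter on low counts, 17 members and 6591 models were lower in pollinated embryo sac than in nucellus, in place of 11 and 5268. Among members that are the only listed model of their gene, 2 were higher and 4 lower after pollination, and 7 were lower in pollinated embryo sac than in nucellus. Fewer members enter that count by construction, and the causes of the other shifts were not tested. With a replicate block, embryo sac against nucellus gave 17 members higher and 6 lower. The block kept 23 of 24, 11 of 11 and 27 of 27 member calls in the 3 comparisons. DESeq2 size factors within edgeR, gene-level counts and leaving out single libraries kept every count of members or models within 1.5 times the main count. No named model changed direction while called. Of the 47 members below the count filter, edgeR with no filter called 8 for embryo sac against nucellus, 3 after pollination and 12 for pollinated embryo sac against nucellus, and the DESeq2 test called 2 in the first and 3 in the last of these. Over all 42007 models, edgeR with no filter called 5197 higher and 3822 lower, 2731 and 3804, and 6093 and 6591, in the same order. The share among all models below the filter was not computed, so it is not known whether the members' counts are unusual. At this depth and with 2 libraries per tissue, values of these 47 rest on at most 29 reads.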
